A study of Rattus norvegicus with 15 samples.

Results

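Txnip and a set of carbohydrate-responsive genes were followed in isolated islets of Langerhans of Lewis rats after most of the pancreas had been removed. The set was given as 9 names, Txnip, Arrdc4, Mlxipl, Pklr, Klf10, Khk, Tkfc, Gpd1 and Mid1ip1, and its members were the rows of the count table with those symbols. This gave 8 members of 28914 genes, since Mlxipl was not analysed here. The names were selected on the levels measured in these 15 libraries, in the same comparisons of Px, Sham and glucose, so the members' own levels and differences between the groups are given as a description, without a test.

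Polyadenylated RNA was sequenced from islets taken 10 weeks after surgery. The higher-glucose Px group holds 3 rats with 90% partial pancreatectomy (Px) and an average blood glucose of 416, 464 and 421. The lower-glucose Px group holds 7 rats with the same operation and a glucose between 104 and 211. The Sham group holds 5 sham-operated rats with a glucose between 88 and 96. The unit of glucose is not given in the labels, and the boundary of 300 between the Px groups was set from the labels alone. All 15 rats are labelled Lewis and 4 to 5 weeks old, without the point of the study at which that age holds. All 15 titles also carry the tag Inc_YES, whose meaning is not given, and the labels name no further treatment. Each library has its own animal number and glucose in the labels, which do not say more on separate preparation, so p-values measure the spread between these libraries. Library totals were 22.3 to 33.4 M counts in higher-glucose Px, 19.1 to 31.6 M in lower-glucose Px and 12.2 to 18.4 M in Sham.

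Glucose acts on transcription largely through ChREBP, the product of Mlxipl, and its relative MondoA, the product of Mlxip. Each pairs with Mlx and binds carbohydrate response elements, which are paired E-boxes in the promoters of glycolytic and lipogenic genes. In beta cells Txnip is among the genes that respond most to glucose, and its protein binds thioredoxin, restrains glucose uptake and promotes beta cell death. The other members cover a Txnip paralog (Arrdc4), a transcription factor (Klf10), glycolysis (Pklr), fructose use (Khk and Tkfc), glycerol phosphate synthesis (Gpd1) and fatty acid synthesis (Mid1ip1).

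Promoters were examined for such elements, since the set is described as Mlxipl (ChREBP) and genes induced by carbohydrate. RefSeq promoter sequences of build GRCr8, from 250 bases before to 50 after the start of transcription, were matched by symbol for 5 of the 8 members: Arrdc4, Pklr, Khk, Tkfc and Mid1ip1. They were searched on both strands for the single E-box CACGTG and for a response-element-like pattern of paired E-box-like ends spaced by any 5 bases, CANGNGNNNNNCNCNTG, which reads the same on both strands and can overlap an E-box. The paired pattern occurred in 0.562% of 33469 promoter sequences of the same length, and CACGTG in 6.42%. Pklr held the paired pattern with its first base 168 bases before the start. Arrdc4 held a single CACGTG 177 bases before the start. Khk, Tkfc and Mid1ip1 held neither pattern in this window. Of 63 promoters of the other pathway genes described further on, only that of Rgs16 held the paired pattern, beginning 12 bases before the start. The 3 promoters with a match are shown on the strand of their gene, with the match in capitals, for Pklr at chr2:176841014-176841313 (forward), Arrdc4 at chr1:131793376-131793675 (reverse) and Rgs16 at chr13:68437870-68438169 (forward).
Pklr: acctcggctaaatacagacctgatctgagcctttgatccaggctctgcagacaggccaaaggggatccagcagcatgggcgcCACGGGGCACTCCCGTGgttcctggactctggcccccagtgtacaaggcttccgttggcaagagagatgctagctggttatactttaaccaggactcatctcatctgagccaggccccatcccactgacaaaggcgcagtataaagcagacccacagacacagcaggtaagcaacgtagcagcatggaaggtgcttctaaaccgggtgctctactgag
Arrdc4: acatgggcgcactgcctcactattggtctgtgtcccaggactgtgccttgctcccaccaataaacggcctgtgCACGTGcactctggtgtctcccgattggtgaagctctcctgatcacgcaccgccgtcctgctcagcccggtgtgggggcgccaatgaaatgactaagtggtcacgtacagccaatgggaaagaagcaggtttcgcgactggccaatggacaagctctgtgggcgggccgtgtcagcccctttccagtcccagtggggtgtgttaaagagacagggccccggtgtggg
Rgs16: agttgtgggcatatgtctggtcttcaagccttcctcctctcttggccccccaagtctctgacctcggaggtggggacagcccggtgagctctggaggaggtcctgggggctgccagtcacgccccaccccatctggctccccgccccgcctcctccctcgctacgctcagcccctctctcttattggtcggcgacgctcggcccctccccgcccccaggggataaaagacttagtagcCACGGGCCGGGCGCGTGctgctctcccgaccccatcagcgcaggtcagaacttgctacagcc
A match of letters is a description of the sequence, and binding was not measured.

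Txnip (chromosome 2, 198683159 to 198686974, forward strand; the sources used here do not give the build of the count table) was the member that differed most from Sham. Levels are counts per M on library sizes scaled by the trimmed mean of M-values (CPM, TMM). Txnip stood at 581, 1165 and 724 CPM in the higher-glucose Px libraries, at 247 to 1113 CPM with a median of 576 CPM in the 7 lower-glucose Px libraries, and at 62.7, 155, 111, 98.8 and 98.3 CPM in Sham. Every Px library lay above every Sham library, while the Px groups overlapped. The means were 823 ± 305 CPM (SD, n = 3) in higher-glucose Px, 603 ± 325 CPM (n = 7) in lower-glucose Px and 105 ± 33.1 CPM (n = 5) in Sham. The log2 fold change of all Px over Sham was 2.67 ± 0.38 (standard error of the edgeR fit), a 6.37-fold difference. Against Sham it was 2.96 ± 0.43 for higher-glucose Px and 2.52 ± 0.38 for lower-glucose Px, and between the Px groups it was 0.45 ± 0.40, about the size of its own error, and 0.00 on library totals alone. Less the median of all genes on library totals, the value between the Px groups was 0.53.

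Among the 7 lower-glucose Px rats the level of Txnip did not follow the glucose label in order. The rat with the glucose of 119 had 1113 CPM, while those with 104 and 132 had 252 and 247 CPM, and the rat with 211 had 480 CPM. The slope was 0.23 ± 0.98 on the log2 scale per doubling of glucose. Leaving out 1 of these libraries moved the slope between -0.81 (without replicate 14, glucose 104) and 1.49 (without replicate 16, glucose 119), so its direction rests on single libraries.

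**Figure D1:**
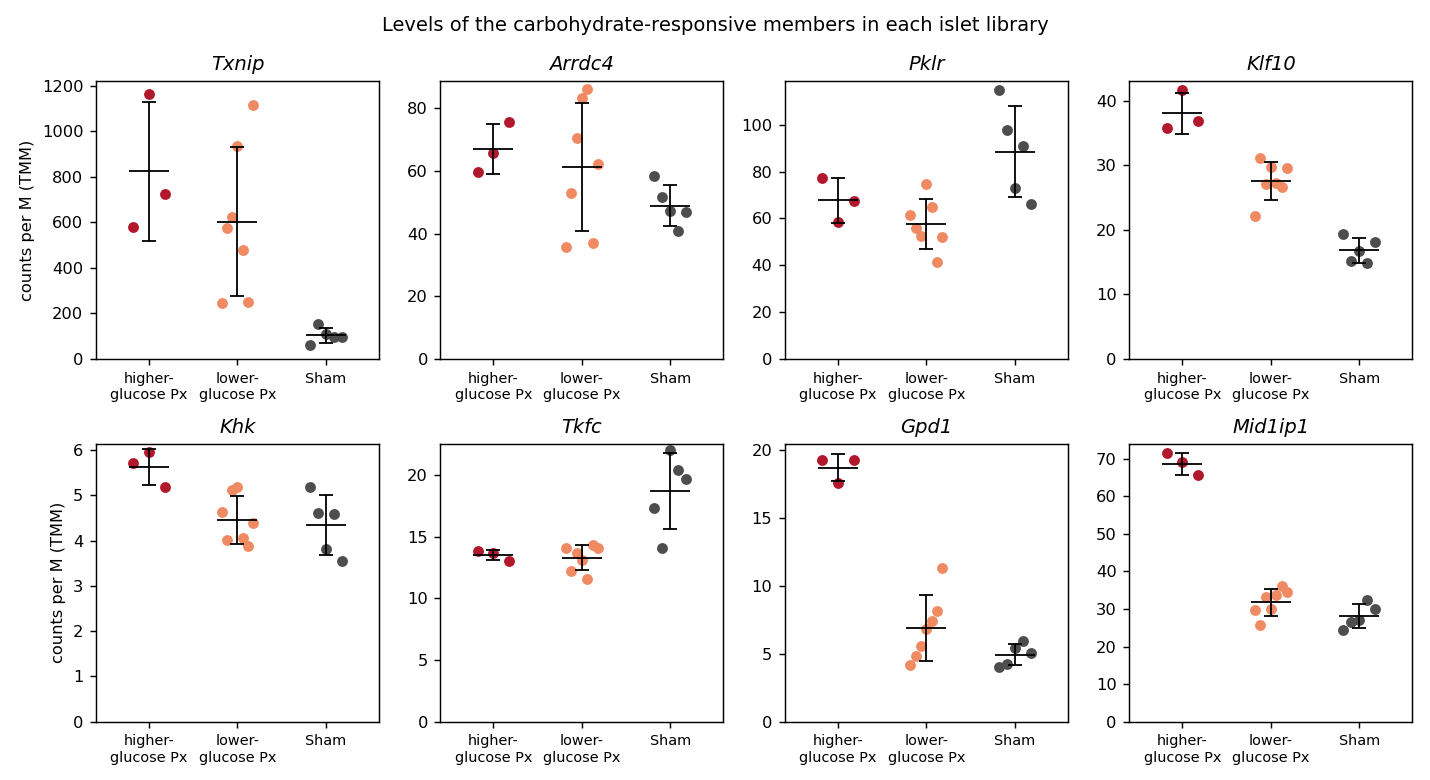
Levels of the 8 members in each library, in counts per M (TMM, linear axes from 0), with higher-glucose Px (n = 3, red), lower-glucose Px (n = 7, orange) and Sham (n = 5, grey) from left to right. Points are libraries and bars are the mean ± SD; Txnip is above every Sham library in all 10 Px libraries, and Gpd1 and Mid1ip1 are high in the 3 higher-glucose Px libraries.

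Arrdc4 (chromosome 1, 129766100 to 129780356, reverse strand) encodes an alpha-arrestin closely related to Txnip. It had 59.8, 65.7 and 75.5 CPM in higher-glucose Px, 35.6 to 86.2 CPM with a median of 62.3 CPM in lower-glucose Px, and 58.4, 51.8, 47.2, 40.8 and 46.8 CPM in Sham. The higher-glucose Px libraries lay just above the Sham libraries, and the lower-glucose Px libraries spread below, across and above them. Its log2 fold change was 0.45 ± 0.25 for higher-glucose Px over Sham and 0.32 ± 0.20 for lower-glucose Px over Sham. With library totals alone as the scale these became -0.55 and -0.19, while that scale moved the median of all genes by -1.01 and -0.50. Within lower-glucose Px the fitted slope of Arrdc4 was 1.18 ± 0.38 per doubling of glucose, the steepest of the 8 members, and stayed between 0.97 and 1.43 when each library was left out. The libraries of the rats with 211 and 157 were highest, at 86.2 and 83.3 CPM, and those with 132 and 104 were lowest, at 35.6 and 37.0 CPM.

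Klf10 (chromosome 7, 77156006 to 77162148, reverse strand) encodes a zinc-finger transcription factor that responds to glucose in mouse liver cells. It had 35.7, 41.7 and 36.8 CPM in higher-glucose Px, 22.1 to 31.1 CPM with a median of 27.2 CPM in lower-glucose Px, and 19.3, 15.2, 16.8, 14.8 and 18.1 CPM in Sham. The 3 groups formed 3 steps with no overlap between any pair. For Klf10 the log2 fold change was 1.18 ± 0.12 for higher-glucose Px over Sham, 0.71 ± 0.10 for lower-glucose Px over Sham and 0.46 ± 0.11 between the Px groups. The step between the Px groups was -0.04 on library totals alone and 0.24 when libraries were scaled on endocrine granule genes. Both scales also moved the median of all genes, and less that median the step was 0.49 and 0.50.

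Gpd1 (chromosome 7, 141370491 to 141377928, forward strand) encodes the cytosolic glycerol-3-phosphate dehydrogenase, which turns a glycolytic intermediate into glycerol phosphate. It had 19.3, 17.6 and 19.3 CPM in higher-glucose Px, 4.16 to 11.3 CPM with a median of 6.81 CPM in lower-glucose Px, and 4.07, 4.25, 5.42, 5.96 and 5.04 CPM in Sham. All 3 higher-glucose Px libraries were above every other library, and lower-glucose Px overlapped Sham. For Gpd1 the log2 fold change was 1.91 ± 0.25 for higher-glucose Px over Sham, 0.46 ± 0.21 for lower-glucose Px over Sham and 1.45 ± 0.22 between the Px groups. Within lower-glucose Px the fitted slope of Gpd1 was -0.38 ± 0.50 per doubling of glucose. It stayed between -1.23 and -0.02 when each library was left out. The highest lower-glucose Px values were 11.3 CPM in replicate 16 (glucose 119) and 8.17 CPM in replicate 14 (glucose 104), the rats with the lowest glucose of that group. These libraries also had the highest acinar scores of that group, 13.26 and 12.99 (mean log2 CPM of the acinar markers), against 11.27 to 12.25 in the other 5. Adding the acinar score to the fit, the log2 fold change over Sham was 0.94 for higher-glucose Px and -0.39 for lower-glucose Px, and that between the Px groups was 1.33. With the fibroblast score in its place, the values over Sham were 3.03 for higher-glucose Px and 2.04 for lower-glucose Px. Both scores separate every Px from every Sham library, so these fits cannot tell score and surgery apart.

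Mid1ip1 (chromosome X, 13114569 to 13116743, reverse strand) encodes a small protein that promotes the assembly of acetyl-CoA carboxylase into its active form. It had 71.4, 69.0 and 65.6 CPM in higher-glucose Px, 25.6 to 36.0 CPM with a median of 33.2 CPM in lower-glucose Px, and 24.5, 26.5, 27, 32.5 and 30.1 CPM in Sham. The higher-glucose Px libraries were tightly grouped and far above all others, and lower-glucose Px overlapped Sham. The means were 68.7 ± 2.9 CPM (SD, n = 3) in higher-glucose Px, 31.8 ± 3.55 CPM (n = 7) in lower-glucose Px and 28.1 ± 3.19 CPM (n = 5) in Sham. For Mid1ip1 the log2 fold change was 1.28 ± 0.11 for higher-glucose Px over Sham, 0.17 ± 0.09 for lower-glucose Px over Sham and 1.11 ± 0.10 between the Px groups. Between the Px groups it stayed between 0.62 and 1.17 over the 10 other settings. Within lower-glucose Px the slope of Mid1ip1 was -0.10 ± 0.20 per doubling of glucose.

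Pklr, Khk and Tkfc, the glycolytic and fructose enzymes of the set, had no step of that size. Pklr (chromosome 2, 188449210 to 188459592, forward strand) encodes the liver and red cell pyruvate kinase, the last enzyme of glycolysis, whose rat promoter is the classic example of a carbohydrate response element. It had 77.5, 58.3 and 67.6 CPM in higher-glucose Px, 41.3 to 74.8 CPM with a median of 55.9 CPM in lower-glucose Px, and 115, 97.7, 73.0, 90.9 and 66.3 CPM in Sham. Of the 10 Px libraries 7 were below the lowest Sham library, and the groups overlapped. For Pklr the log2 fold change was -0.39 ± 0.19 for higher-glucose Px over Sham and -0.63 ± 0.15 for lower-glucose Px over Sham. When libraries were scaled on endocrine granule genes, it was 0.00 in both of these comparisons and for all Px over Sham. Less the median of all genes on that scale, it was -0.47 for higher-glucose Px, -0.68 for lower-glucose Px and -0.62 for all Px. Of the 5107 exon bases of Pklr, 60.4% also belong to Hcn3 on the opposite strand, and the strand setting of the counting is not given, so reads of the 2 genes cannot be told apart there. Hcn3, which encodes an ion channel, had 15.6 ± 1.37 CPM in higher-glucose Px, 12.5 ± 1.99 CPM in lower-glucose Px and 23.5 ± 2.13 CPM in Sham (SD).

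Khk (chromosome 6, 26810579 to 26820959, reverse strand) encodes ketohexokinase, which phosphorylates fructose. It had 5.71, 5.96 and 5.19 CPM in higher-glucose Px, 3.87 to 5.17 CPM with a median of 4.39 CPM in lower-glucose Px, and 5.18, 4.60, 3.81, 4.58 and 3.55 CPM in Sham. The higher-glucose Px libraries lay above the others by a narrow margin, 5.19 CPM against 5.18 CPM in the nearest Sham library. Tkfc (chromosome 1, 226644200 to 226657408, reverse strand) encodes triokinase, which phosphorylates glyceraldehyde, a product of fructose breakdown. It had 13.8, 13.7 and 13 CPM in higher-glucose Px, 11.6 to 14.3 CPM with a median of 13.7 CPM in lower-glucose Px, and 17.3, 14.1, 22, 20.4 and 19.7 CPM in Sham. The Px groups overlapped, and 1 Sham library (14.1 CPM) fell among them. The log2 fold change of Tkfc was -0.48 ± 0.13 for higher-glucose Px over Sham and 0.02 ± 0.12 between the Px groups. When libraries were scaled on endocrine granule genes, Tkfc was 0.13 for all Px over Sham, and -0.49 less the median of all genes on that scale.

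**Figure D2:**
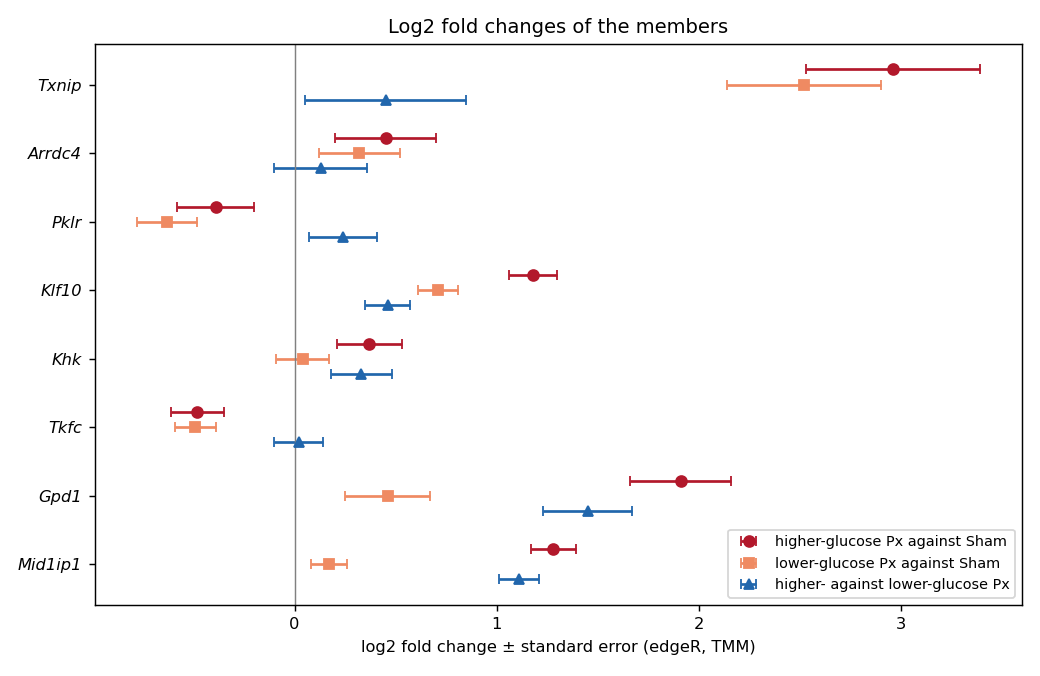
Log2 fold changes ± standard error of the 8 members from the edgeR fit of 3 groups (TMM), for higher-glucose Px over Sham (red circles), lower-glucose Px over Sham (orange squares) and higher- over lower-glucose Px (blue triangles). Txnip is far right in both comparisons with Sham and near 0.45 between the Px groups, while Gpd1 and Mid1ip1 are at 1.45 and 1.11 between the Px groups.

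Counted over the set, 6 members lay higher in all higher-glucose Px libraries than in any Sham library (Txnip, Arrdc4, Klf10, Khk, Gpd1 and Mid1ip1) and 1 lay lower (Tkfc). Of 15661 genes tested, 30.3% were so placed upward and 23.9% downward. For lower-glucose Px against Sham, Txnip and Klf10 lay wholly above and 0 wholly below, where 22.9% and 18.5% of genes did. Between the Px groups, Klf10, Khk, Gpd1 and Mid1ip1 lay wholly higher in higher-glucose Px and 0 lower, where 5.39% and 4.46% of genes did. For all Px against Sham, Txnip and Klf10 again lay wholly above and 0 below, against 20.8% and 16.4% of 15199 genes. Scaled on endocrine granule genes, Txnip, Klf10, Gpd1 and Mid1ip1 lay wholly above Sham and 0 members below in all Px (37.8% and 1.67% of genes), and the same 4 members in lower-glucose Px (44.4% and 1.85%). In higher-glucose Px these 4 and Arrdc4 did (44.3% above and 6.47% below). On that scale Gpd1 and Mid1ip1 were the members that lay wholly higher in higher- than in lower-glucose Px, and 0 lay lower (1.48% and 9.71% of genes). These counts restate the choice of members and are read no further.

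Levels can be compared between genes after division by exon length (CPM per kb). For Pklr the comparison is limited, since reads of Hcn3 cannot be told apart over 60.4% of its exon bases. In higher-glucose Px, Txnip was highest at 299 ± 110 CPM per kb, followed by Mid1ip1 at 36.3 ± 1.53. Arrdc4 at 15.6 ± 1.85, Pklr at 13.3 ± 1.88 and Klf10 at 12.7 ± 1.07 came next and differed by about their spread. Gpd1 at 6.52 ± 0.34, Tkfc at 5.69 ± 0.165 and Khk at 3.93 ± 0.275 CPM per kb were lowest (SD, n = 3). In Sham, Txnip had 38.1 ± 12 CPM per kb, Pklr 17.3 ± 3.82 and Mid1ip1 14.8 ± 1.68, the last 2 within their spread, and Gpd1 was lowest at 1.72 ± 0.276 (SD, n = 5). Txnip led in both groups.

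The islet preparations also differed in their content of other cell types, which moves with the same groups. Markers of acinar cells, which make the digestive enzymes, took 31.8% ± 9.2 of counts in Px (n = 10) and 5.43% ± 5.73 in Sham (SD, n = 5; exact permutation test over 3003 splits, two-sided, p = 0.000666), and were higher in 10 of 10 Px libraries than in every Sham library. Their share was 34.1% ± 3.99 in higher-glucose Px and 30.9% ± 10.9 in lower-glucose Px (exact permutation test over 120 splits, two-sided, p = 0.633). These shares are of raw counts. On the CPM scale used for the members, the markers summed to a median of 498108 CPM in higher-glucose Px and 263886 CPM in lower-glucose Px. Their median log2 fold change between the Px groups was 0.71, with 0 of 21 markers called by edgeR. All 13 macrophage and myeloid markers and all 9 fibroblast and stellate markers tested were higher in Px than in Sham by edgeR, with summed levels of 778 to 3988 CPM in Px and 33.0 to 75.6 CPM in Sham for the macrophage list. The fibroblast list summed to 1015 to 1944 CPM in higher-glucose Px, 2885 to 7298 CPM in lower-glucose Px and 143 to 445 CPM in Sham, and 5 of its 9 genes were lower in higher- than in lower-glucose Px. Of 10 beta cell markers, 9 were lower in Px than in Sham and 0 higher, where 30.2% and 34.5% of all genes were called in these directions. Of the 8 endocrine granule genes used for scaling, 4 were lower in Px than in Sham and 0 higher. Between the Px groups 3 of them were higher and 0 lower, where 3.29% and 1.59% of all genes were. Scaling on these genes is therefore not independent of the groups. Of the 9 marker lists, 0 genes were at 0 in every library. In bulk RNA, fewer cells of a type and less RNA per cell cannot be told apart, and the part of these cell types in the members' levels was not tested beyond the covariate fits given here.

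None of the 3 scores used as covariates overlapped between Px and Sham. The acinar score ran from 11.27 to 13.26 in Px and from 6.87 to 10.76 in Sham, the macrophage score from 5.08 to 6.61 in Px and from 0.92 to 2.04 in Sham, and the fibroblast score from 6.04 to 8.19 in Px and from 3.30 to 4.58 in Sham. In each of these fits the surgery and the score cannot be told apart, so the values are given without reading stability from them. For all Px over Sham, the log2 fold change of Txnip was 1.81 with the acinar score, 3.11 with the macrophage score and 2.65 with the fibroblast score, and for lower-glucose Px alone it was 0.96 with the fibroblast score. That of Gpd1 for all Px over Sham, 1.07 without a score, was -0.46, 2.48 and 3.97 with the acinar, macrophage and fibroblast scores, and that of Mid1ip1, 0.61 without a score, was -0.16, 1.16 and 2.46. Gpd1 thus exceeded Txnip in the fit with the fibroblast score. Pklr was 0.69 with the macrophage score, against -0.55 without a score.

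Other genes of carbohydrate sensing were tested from 5 lists with 81 genes in the count table and no member among them. These lists were also chosen with earlier results of these data known, so their calls and shares are not independent evidence. In the comparison of higher- with lower-glucose Px, 10 of 78 tested genes were higher and 1 was lower (edgeR quasi-likelihood test, Benjamini-Hochberg adjusted p under 0.05 over all genes), where 3.29% and 1.59% of all 15661 genes were. Of 21 carbohydrate-responsive metabolic genes 7 rose and 0 fell, with a median log2 fold change of 0.18 against -0.02 over all genes. Over all 5 lists, the 10 rises became 4 when libraries were scaled on endocrine granule genes and 3 on library totals. Leaving out higher-glucose replicate 13 gave 6.

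Rgs16, a regulator of G protein signalling that responds to carbohydrate in mouse liver, had 122, 87.0 and 144 CPM in higher-glucose Px and 12.9 to 40.0 CPM in lower-glucose Px. It stood at 27.6, 29.6, 38.1, 34.4 and 40.9 CPM in Sham, so lower-glucose Px and Sham overlapped and the 3 higher-glucose libraries stood alone. The log2 fold change between the Px groups was 2.03 ± 0.25 (edgeR, Benjamini-Hochberg adjusted p = 0.000213), and that of lower-glucose Px over Sham was -0.25 ± 0.22 (adjusted p = 0.345). G6pc, the catalytic subunit of glucose-6-phosphatase, had 11.1, 11.6 and 11.1 CPM in higher-glucose Px, 0.636 to 2.50 CPM in lower-glucose Px and 0.101 to 0.569 CPM in Sham. Its log2 fold change between the Px groups was 3.15 ± 0.38 (edgeR, adjusted p = 0.000191).

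Another 4 genes of that list with a call were named after their values were seen. Acaca and Acacb encode the acetyl-CoA carboxylases on which the Mid1ip1 protein acts. Acaca had 49.8 ± 2.29 CPM in higher-glucose Px, 29.8 ± 3.17 CPM in lower-glucose Px and 39.6 ± 3.86 CPM in Sham, and Acacb had 37.5 ± 18.8 CPM in higher-glucose Px, 13.3 ± 4.37 CPM in lower-glucose Px and 2.38 ± 0.958 CPM in Sham. Acaca rose by 0.74 ± 0.10 between the Px groups (edgeR adjusted p = 0.000551) but was lower in lower-glucose Px than in Sham (-0.41 ± 0.09, adjusted p = 0.000573). Acacb rose by 1.5 ± 0.33 between the Px groups (edgeR adjusted p = 0.0147), and the call was lost without higher-glucose replicate 13 or 15 (adjusted p = 0.0799 and 0.12). Slc2a5, the fructose transporter GLUT5, had 12.7 ± 1.25 CPM in higher-glucose Px, 6.74 ± 0.917 CPM in lower-glucose Px and 9.52 ± 0.645 CPM in Sham. It rose by 0.92 ± 0.12 between the Px groups (edgeR adjusted p = 0.000551), and against Sham it was lower in lower-glucose Px (-0.51 ± 0.11, adjusted p = 0.000714) and higher in higher-glucose Px (0.41 ± 0.13, adjusted p = 0.0148). Angptl8, a secreted regulator of lipoprotein lipase, rose between the Px groups by 1.06 ± 0.24 (edgeR adjusted p = 0.0173), a call lost without higher-glucose replicate 13 (adjusted p = 0.173).

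**Figure D3:**
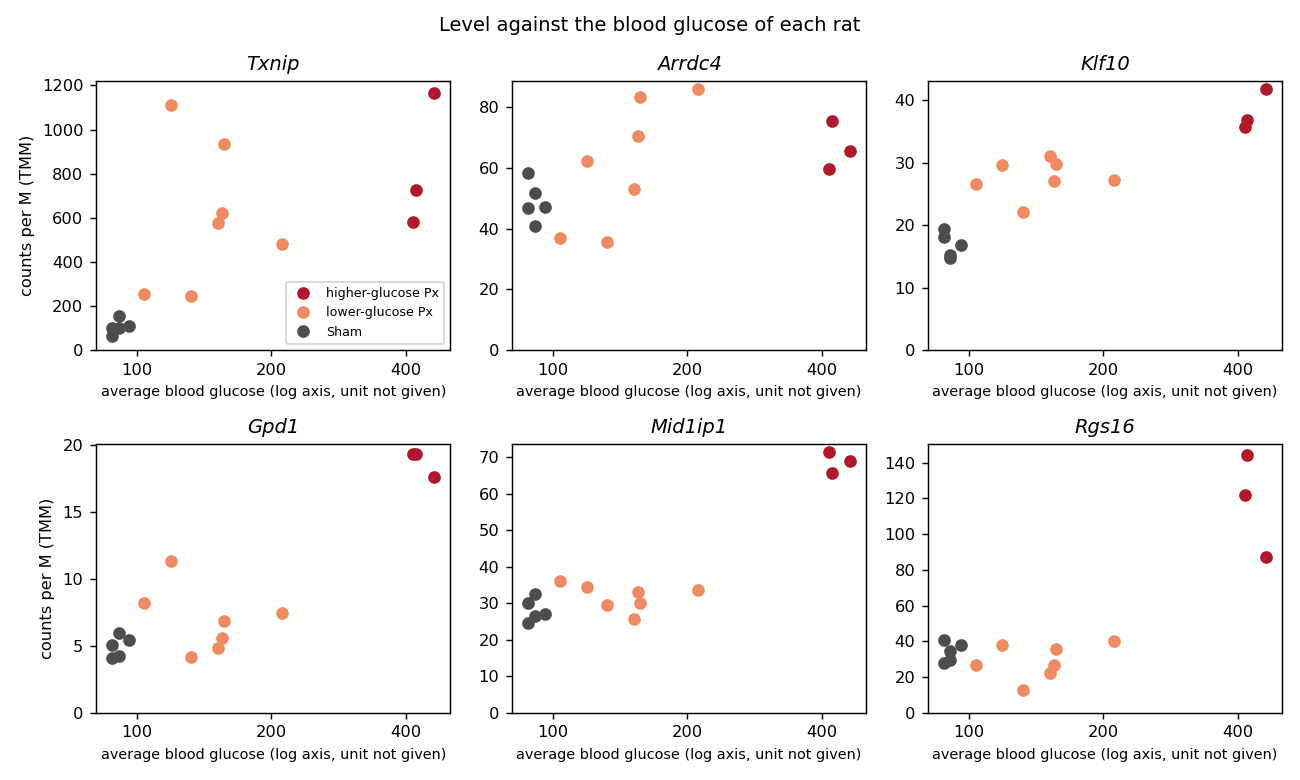
Levels in counts per M (TMM, linear axis from 0) of Txnip, Arrdc4, Klf10, Gpd1, Mid1ip1 and Rgs16 in each of the 15 libraries against the rat's average blood glucose on a log axis, with higher-glucose Px in red, lower-glucose Px in orange and Sham in grey. Gpd1, Mid1ip1 and Rgs16 are high in the 3 libraries at a glucose of 416 to 464, while Txnip spans 247 to 1113 CPM in the 7 lower-glucose Px libraries.

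Outside the metabolic list, 1 of 10 arrestin-domain and thioredoxin genes and 1 of 16 fructose and glycerol phosphate genes rose between the Px groups. In both lists 0 fell, and of 12 Krueppel-like factors 1 rose and 1 fell. Over all genes 3.29% rose and 1.59% fell. Counts this small, and that of the Mondo-Mlx network below, are read no further. Map3k5, the stress kinase ASK1 that thioredoxin holds inactive, had 77.7 ± 47.8 CPM in higher-glucose Px, 26.5 ± 15 CPM in lower-glucose Px and 12 ± 2.04 CPM in Sham, and rose by 1.56 ± 0.35 (edgeR adjusted p = 0.0182). The call was lost without higher-glucose replicate 15 (adjusted p = 0.184). Lpin1, a phosphatidate phosphatase, rose by 0.56 ± 0.14 (edgeR adjusted p = 0.0293), a call lost without lower-glucose replicate 2 or higher-glucose replicates 13 or 19. Klf2 rose by 1.24 ± 0.28 (edgeR adjusted p = 0.0199) and was not called without higher-glucose replicate 13 or 15. Klf6 fell by 0.63 ± 0.16 (edgeR adjusted p = 0.0347), and 5 of 15 libraries, lower-glucose replicates 4 and 10 and all 3 higher-glucose ones, each ended that call when left out. On library totals Map3k5 (1.12), Lpin1 (0.01), Klf2 (0.74) and Klf6 (-1.13) were not called by edgeR. On endocrine granule gene scaling Map3k5 (1.37), Lpin1 (0.32) and Klf2 (0.98) were not called, while Klf6 kept its call. Of 19 genes of the Mondo-Mlx network, 0 were called by edgeR and limma voom and 1 by DESeq2, and 5 had an unadjusted edgeR p under 0.05. Within lower-glucose Px, 0 of 74 genes had a slope on glucose past the threshold by edgeR, DESeq2 or limma voom, and 6 had an unadjusted edgeR p under 0.05. Over all genes the slope gave 0 of 13752 calls by edgeR, with 1277 at an unadjusted p under 0.05, and 91 positive and 30 negative calls by DESeq2. In the fit that includes the fibroblast score, 0 of the 78 genes were called by edgeR and 10 had an unadjusted p under 0.05. That score ran from 6.04 to 6.77 in higher-glucose Px and from 6.97 to 8.19 in lower-glucose Px, so it separates the same libraries.

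**Figure D4:**
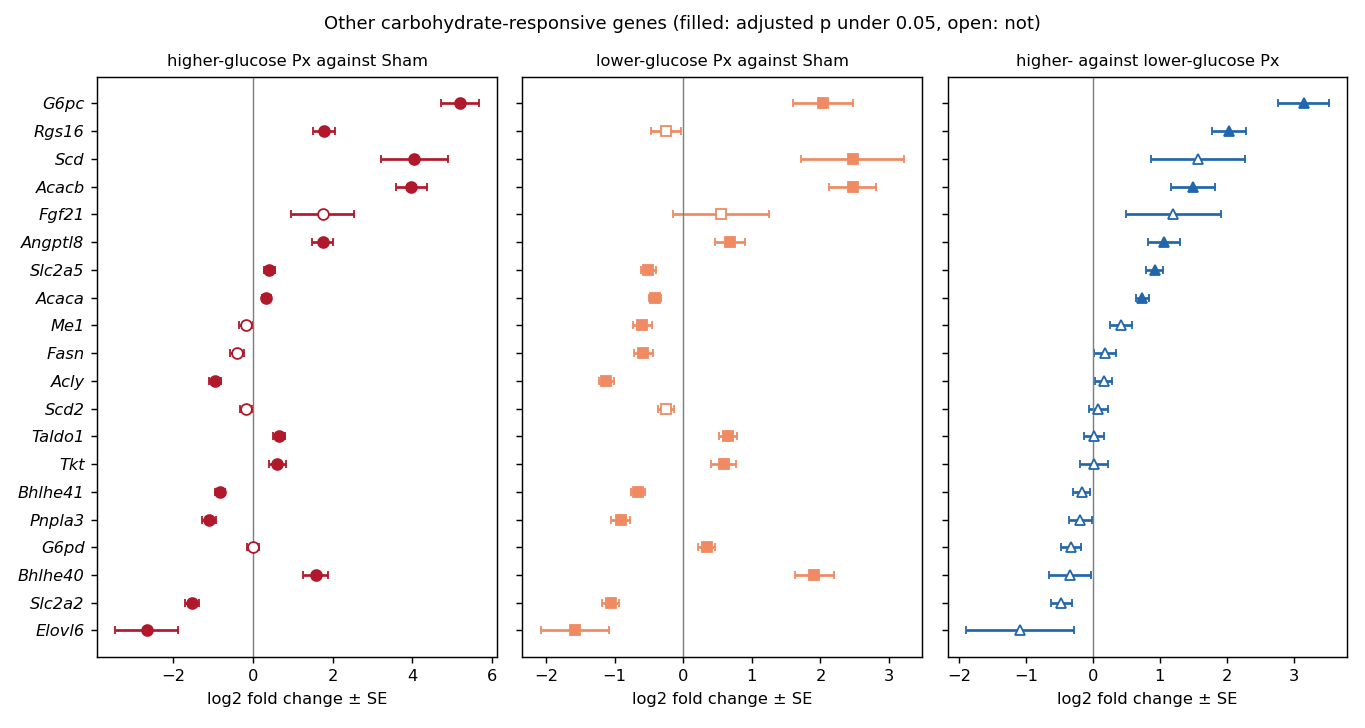
Log2 fold changes ± standard error (edgeR, TMM) of 20 of the 21 tested carbohydrate-responsive metabolic genes that are not members, for higher-glucose Px over Sham, lower-glucose Px over Sham, and higher- over lower-glucose Px, from left to right. Filled symbols have an adjusted p under 0.05; 6 genes are filled in the right panel, all above 0.

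Compared with Sham, the same list moved both ways. For all Px against Sham 8 of 20 tested metabolic genes rose and 6 fell, where 34.5% and 30.2% of all genes did, so these counts lie near the background. The median of the list was 0.43, against 0.02 over all genes. Acacb rose by 3.11 ± 0.50 (edgeR adjusted p = 4.43e-05), Bhlhe40, a clock-linked repressor, by 1.82 ± 0.27 (adjusted p = 1.9e-05) and Taldo1, transaldolase, by 0.66 ± 0.12 (adjusted p = 0.000128). Acly, which makes cytosolic acetyl-CoA, had 668 ± 75.5 CPM in Px and 1398 ± 148 CPM in Sham and fell by 1.06 ± 0.11 (edgeR adjusted p = 3.75e-07). Slc2a2, the glucose transporter GLUT2, had 797 ± 168 CPM in Px and 1805 ± 165 CPM in Sham and fell by 1.18 ± 0.15 (edgeR adjusted p = 3.4e-06). Pnpla3, a lipid droplet acyltransferase and lipase, fell by 0.96 ± 0.13 (edgeR adjusted p = 6.23e-06). The calls of the list went both ways in the comparison with Sham and 1 way between the Px groups. The difference between those counts was not tested, and both use the same Px libraries.

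Of the glucose-sensing transcription factors, Mlx fell on TMM scaling and Mlxip did not pass the test. Endocrine granule gene scaling moved the median of all genes by 0.59 in all Px against Sham. The value of Mlx on that scale is not given here. Mlx had 52.5 ± 7.31 CPM in Px and 71.4 ± 11.6 CPM in Sham (log2 fold change -0.44 ± 0.11, edgeR adjusted p = 0.002), and Mlxip had 33.6 ± 5.89 CPM in Px and 32.0 ± 4.78 CPM in Sham (0.07 ± 0.12, adjusted p = 0.627); both were named after their values were seen. In that network 3 of 19 genes rose and 7 fell, where 34.5% and 30.2% of all genes did. Nr1h3, the liver X receptor alpha, which macrophages also express, rose by 2.33 ± 0.22 (edgeR adjusted p = 2.31e-07), Usf1 by 0.40 ± 0.12 (adjusted p = 0.00734) and Mxd4 by 0.18 ± 0.08 (adjusted p = 0.0454), a call that 9 of 15 libraries each ended when left out. Mnt, a repressor that pairs with Mlx or Max, fell by 0.87 ± 0.11 (edgeR adjusted p = 4.25e-06). Gfpt1 and Gfpt2, the entry enzymes of the hexosamine pathway, fell by 0.67 ± 0.10 and 1.05 ± 0.11 (edgeR adjusted p = 1.61e-05 and 3.9e-07).

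Of 10 arrestin-domain and thioredoxin genes, 7 rose and 0 fell in all Px against Sham, where 34.5% and 30.2% of all genes did, as for the 2 lists that follow. Arrdc3, another alpha-arrestin, rose by 0.74 ± 0.12 (edgeR adjusted p = 5.09e-05). Txn1, the thioredoxin that Txnip binds, had 70.3 ± 28.1 CPM in Px and 24 ± 4.78 CPM in Sham and rose by 1.55 ± 0.23 (edgeR adjusted p = 2.43e-05). Nlrp3, the inflammasome sensor to which Txnip has been linked and which myeloid cells express, had 8.69 ± 6.25 CPM in Px and 0.578 ± 0.238 CPM in Sham (3.89 ± 0.51, edgeR adjusted p = 5.15e-06). Of 12 Krueppel-like factors 6 rose and 0 fell, among them Klf3 by 0.54 ± 0.09, Klf4 by 1.73 ± 0.21 and Klf6 by 1.48 ± 0.18 (edgeR adjusted p of 4.07e-05 or below). Of 16 genes of fructose and glycerol phosphate metabolism 5 rose and 4 fell, at or under that background. Fbp1 and Fbp2, fructose bisphosphatases, rose by 4.15 ± 0.61 and 4.00 ± 0.65, with Sham levels of only 0.596 ± 0.379 and 0.669 ± 0.608 CPM (edgeR adjusted p = 1.81e-05 and 5.01e-05), and Dgat2, an enzyme of triglyceride synthesis, by 1.57 ± 0.23 (adjusted p = 1.61e-05). Gpd2, the mitochondrial partner of Gpd1 in the glycerol phosphate shuttle, fell by 1.05 ± 0.07 and Lpin1 by 0.61 ± 0.15 (edgeR adjusted p = 1.28e-08 and 0.00217).

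Over all 5 lists, 29 of 77 genes rose and 17 fell in all Px against Sham, where 34.5% and 30.2% of all genes did, so these counts are close to the background. Against Sham 30 of 78 rose and 14 fell in higher-glucose Px (32.2% and 25.5% of all genes), and 31 rose and 21 fell in lower-glucose Px (33.6% and 30.0%). The split of all Px against Sham was 18 and 37 on library totals, and 51 and 6 on endocrine granule gene scaling. In the fit that includes the macrophage score, 0 of 77 were called by edgeR, and 5 higher and 9 lower had an unadjusted p under 0.05. Macrophage, fibroblast and acinar markers rose with the same groups, and their part in these gene groups was not tested further.

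Likeness to Txnip was measured as Pearson's r of log2 CPM over the 10 Px libraries, among 9724 genes with a mean of at least 5 CPM, as a description without a test. The points share their operation and tissue, and their acinar content and depth differ. The 5 genes most alike were Errfi1, an inhibitor of EGF receptor signalling, at 0.93, Depp1 at 0.89, Sesn1, a stress-induced sestrin, at 0.88, Arid5b at 0.87 and Klf11 at 0.86. Errfi1 had 151 ± 76.2 CPM in Px and 67.8 ± 7.67 CPM in Sham, and Klf11 had 17 ± 4.45 CPM in Px and 17.1 ± 2.66 CPM in Sham (SD). Of the members, Arrdc4 came at 0.72 (rank 19) and Klf10 at 0.70 (rank 27). Gpd1 was at 0.50 (rank 229), Mid1ip1 at 0.33 (rank 1086), Pklr at 0.31 (rank 1272) and Tkfc at -0.12 (rank 6266), while Khk fell under the minimum level. Arrdc4 and Klf10 were thus the members most like Txnip across the Px libraries, and Gpd1 and Mid1ip1, which set the 3 higher-glucose libraries apart, were less like it.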

How the data were processed

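Raw read counts for 28914 genes in 15 libraries were deposited by the authors, and each gene's position, strand and exon length stand beside them, per the file headers. The submitters' processing notes name Subread, featureCounts, FastQC and limma and give no version. No source used here gives the genome build, annotation or strand setting used in counting. The authors' deposited comparison table was not used.

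Low counts were removed by edgeR's filterByExpr at a minimum count of 10 and a total of 15, and libraries were scaled by TMM and fitted in edgeR 4.0.16 (R 4.3.3) with two-sided quasi-likelihood tests and Benjamini-Hochberg adjustment at 0.05 over all genes tested. A 2-group fit compared all Px with Sham, a 3-group fit gave the remaining contrasts, and 7 lower-glucose Px libraries gave the slope on log2 glucose. Standard errors are the log2 fold change divided by the root of the F statistic. Alternatives were other scaling factors, other filters, DESeq2 1.42.0, limma voom (limma 3.58.1), acinar, macrophage or fibroblast scores as covariates, and leaving out each library. The fits were tested on simulated counts. Acinar shares were compared by exact permutation tests (scipy 1.17.1). Depth was 12.2 to 33.4 M counts per library.

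The members and gene lists were chosen with earlier results of these data known. Named genes are the members, up to 3 genes of each pathway list called each way with the smallest p in all Px against Sham and up to 2 each way in higher- against lower-glucose Px, and the 5 genes most like Txnip. Mlxipl was not analysed here. Some named genes are not reported here, though list counts include them.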

Additional observations from a re-analysis of the deposited data

How the results depend on the processing

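Direction and size of the members' differences depended on scaling and on the cell type scores. Library totals moved the median of all genes by -0.64 for all Px against Sham, -1.01 for higher-glucose Px against Sham, -0.50 for lower-glucose Px against Sham and -0.51 between the Px groups, and endocrine granule gene scaling by 0.59, 0.43, 0.66 and -0.24. DESeq2 size factors, the other filters, DESeq2 and limma voom kept the direction of every member in the 4 comparisons of groups, except that Tkfc between the Px groups was 0.00 with DESeq2 and its size factors. No paired analysis was possible because the groups share no replicate numbers.

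For all Px against Sham, other pathway genes called higher (29) became 18 on library totals, 51 on endocrine scaling, 15 with the acinar score, 0 with the macrophage score and 15 with the fibroblast score, and those called lower (17) became 37, 6, 0 and 5 on library totals, endocrine scaling, macrophage and fibroblast scores. Txnip (2.67) became 1.97 on library totals and 1.81 with the acinar score. Gpd1 (1.07) became 2.48 with the macrophage and 3.97 with the fibroblast score, and Mid1ip1 (0.61) 1.16 and 2.46. Signs turned for Arrdc4 (-0.29) and Khk (-0.52) on library totals, Mid1ip1 (-0.13 on library totals, -0.16 with the acinar score), Gpd1 (-0.46, acinar score), Pklr (0.69, macrophage score) and Tkfc (0.13, endocrine scaling). With the macrophage score signs also turned for Taldo1 (-0.67), Bhlhe40 (-0.66), Mxd4 (-0.06), Txn1 (-1.37), Nlrp3 (-0.26), Dgat2 (-0.04), Lpin1 (0.26) and Klf6 (-0.09), with library totals for Mxd4 (-0.46), Usf1 (-0.23) and Klf3 (-0.11), with the acinar score for Mxd4 (-0.03), and with the fibroblast score for Usf1 (-0.13) and Lpin1 (0.33). Other calls were lost with the sign kept. On endocrine scaling these were Gfpt1 (-0.08), Mnt (-0.26) and Lpin1 (-0.05). With the acinar score they were Acacb (1.15), Fbp1 (2.27), Fbp2 (0.48), Taldo1 (0.29), Dgat2 (0.95) and Lpin1 (-0.66). Taldo1 (0.02) and Arrdc3 (0.12) lost theirs on library totals.

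For higher-glucose Px against Sham, genes called higher (30) became 15 on library totals and 44 on endocrine scaling. They became 11 with the acinar, 0 with the macrophage and 9 with the fibroblast score. Those called lower (14) became 43 on library totals, 9 on endocrine scaling, 0 with the macrophage and 4 with the fibroblast score. Txnip (2.96) became 1.98 on library totals, 2.17 with the acinar and 1.86 with the fibroblast score, Pklr 0.00 on endocrine scaling, 0.20 with the acinar and 0.66 with the macrophage score, and Arrdc4 -0.55 and Khk -0.66 on library totals. For lower-glucose Px against Sham, genes called higher (31) became 18 on library totals, 51 on endocrine scaling, 15 with the acinar and 0 with the macrophage or the fibroblast score, and those called lower (21) became 35, 4, 0 and 0 on library totals, endocrine scaling, macrophage and fibroblast scores. Txnip (2.52) became 0.96 with the fibroblast score, Pklr 0.00 on endocrine scaling and 0.50 with the macrophage score, Tkfc 0.19 on endocrine scaling, and Gpd1 -0.12 on library totals and -0.39 with the acinar score. Arrdc4 became -0.19 on library totals, Mid1ip1 -0.35, -0.05 and -0.54 on library totals and with the acinar and macrophage scores, and Khk -0.46, -0.03 and -0.47 on library totals and with the macrophage and fibroblast scores.

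Between the Px groups, genes called higher (10) became 3 on library totals, 4 on endocrine scaling and 0 with the fibroblast score, and those called lower (1) became 0 on library totals, 2 on endocrine scaling, 4 with DESeq2, 0 with the acinar, 2 with the macrophage and 0 with the fibroblast score. On library totals Txnip became 0.00, Klf10 -0.04, Khk -0.20, Arrdc4 -0.36, Pklr -0.31 and Tkfc -0.48. On endocrine scaling Arrdc4 became -0.10 and Tkfc -0.22, and Tkfc (0.02) was -0.02 with the acinar and -0.09 with the fibroblast score. Where edgeR called 0 genes, the number with an unadjusted p under 0.05 was 5 higher and 9 lower with the macrophage score for all Px, 7 and 10 for higher-glucose Px, 3 and 13 for lower-glucose Px, 9 and 4 with the fibroblast score for lower-glucose Px, and 10 and 0 with it between the Px groups. None of the 3 scores overlapped between Px and Sham, nor did the fibroblast score between the Px groups, so score and group cannot be told apart in those fits; the cause of the other shifts was not tested.

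Leaving out each library gave ranges of 2.53 to 2.85 for Txnip in all Px, 2.63 to 3.18 in higher-glucose Px and 2.30 to 2.70 in lower-glucose Px over Sham, and 0.12 to 0.68 between the Px groups. Genes called higher ranged over 27 to 30, 26 to 31, 28 to 32 and 6 to 13 in these comparisons, and those called lower over 16 to 19, 13 to 16, 19 to 23 and 0 to 3. The slope had 0 calls throughout. The difference in acinar share was 24.5 to 28.9 percentage points between Px and Sham and 1.25 to 6.14 between the Px groups. Depth limits genes of low level most, such as Khk, and Fbp1, Fbp2, G6pc and Nlrp3 in Sham.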
